A study of Mus musculus with 16 samples.

Results

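Gdpd3 and 8 genes beside it on mouse chromosome 7 (Mapk3, Ypel3, Ppp4c, Aldoa, Ino80e, Taok2, Cdipt and Mvp) were followed in all 16 libraries, to see whether Gdpd3 differed between genotypes alone or together with its neighbours. These are 9 of the 14023 genes in the deposited expression matrix. Gdpd3 was selected on its measured level, which was known to differ between genotypes, so its genotype values are described without a test. The neighbours were tested. They are some of the genes near Gdpd3, taken by position with earlier results of these data known. All 9 were among the 13669 genes that passed a filter of at least 1 FPKM (fragment density per transcript length and library size) in at least 2 libraries, and each was above that level in every library.

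The animals were mice homozygous for the PPARg-K107R allele, an arginine in place of a lysine that can carry SUMO in PPARg, the master nuclear receptor of fat cells, or wild-type (WT) mice. All had 10 weeks of chow and then 19 weeks of a diet with 60% of calories as fat, followed by 1 week of oral gavage with 10 mg/kg of the PPARg-activating drug rosiglitazone or with only its vehicle, 1% methylcellulose. Epididymal (eWAT) and inguinal (iWAT) white fat were sequenced from K107R mice on rosiglitazone, K107R mice on vehicle, WT mice on rosiglitazone and WT mice on vehicle, which gives 8 groups of 2 libraries. The labels do not say whether the 2 libraries of a group are separate mice or pools, or whether both depots came from the same mice, and the p-values therefore capture only how these libraries vary, which may be technical variation.

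Gdpd3 encodes a membrane enzyme of the glycerophosphodiester phosphodiesterase family with lysophospholipase D activity: it cuts the head group from lysophospholipids to leave lysophosphatidic acid. The neighbours belong to a conserved block that matches the human 16p11.2 interval. They have unrelated roles: Mapk3 is the kinase ERK1, Ypel3 a small protein tied to growth arrest, Ppp4c the catalytic subunit of protein phosphatase 4, Aldoa the glycolytic enzyme aldolase A, Ino80e a subunit of the INO80 chromatin remodeller, Taok2 a kinase upstream of stress kinases, Cdipt the enzyme that makes phosphatidylinositol, and Mvp the major vault protein.

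In GRCm38, Gdpd3 lies at chr7:126766334-126775649 on the plus strand. Mapk3 (chr7:126759601-126765819, plus strand) ends 514 bp before it and Ypel3 (chr7:126776955-126780514, plus strand) starts 1305 bp after it. Farther along come Ppp4c (chr7:126785866-126792496, minus strand), Aldoa (chr7:126795234-126800751, minus strand), Ino80e (chr7:126850960-126862377, minus strand), Taok2 (chr7:126865678-126884703, minus strand), Cdipt (chr7:126975914-126980501, plus strand) and Mvp (chr7:126986860-127014621, minus strand). The 9 genes span 255.0 kb. The integrin gene Itgad starts 1.39 Mb beyond Gdpd3. Several members overlap other annotated genes: Gdpd3 shares 7568 bp with the opposite-strand transcript Gm9967, Aldoa overlaps Fam57b, Ino80e overlaps Doc2a and Hirip3, Cdipt overlaps Cdiptos, and Mvp shares 13142 bp with Pagr1b on its own strand. The library kit marks strand, but the strand setting used in quantification is not given in the sources used here, so reads of such partners may not be told apart, and the symbol Aldoa also stands for a second annotated gene ID.

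The start-site windows of Gdpd3, of its downstream neighbour Ypel3 and of Aldoa, the other member that changed with rosiglitazone, are shown because these 3 genes carry the results that follow. Each runs from 250 bases before to 50 bases after a RefSeq start (GRCm38.p6) and is printed 5′ to 3′ on the gene's strand, with motif matches on either strand in capitals; RefSeq windows were matched for 7 of the 9 members.
Gdpd3 (chr7:126766164-126766463, plus strand): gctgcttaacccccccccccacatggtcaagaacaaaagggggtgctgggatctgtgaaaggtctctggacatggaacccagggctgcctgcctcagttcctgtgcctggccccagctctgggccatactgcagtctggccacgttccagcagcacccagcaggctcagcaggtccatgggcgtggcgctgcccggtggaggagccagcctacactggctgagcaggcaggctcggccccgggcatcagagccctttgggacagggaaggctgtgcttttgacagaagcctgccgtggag
Ypel3 (chr7:126776713-126777012, plus strand): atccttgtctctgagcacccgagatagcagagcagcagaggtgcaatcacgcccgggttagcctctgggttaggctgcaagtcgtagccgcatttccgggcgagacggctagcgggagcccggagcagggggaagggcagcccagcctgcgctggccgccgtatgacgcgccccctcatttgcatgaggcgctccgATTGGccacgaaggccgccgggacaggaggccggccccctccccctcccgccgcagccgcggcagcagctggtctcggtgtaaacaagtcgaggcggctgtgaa
Aldoa (chr7:126799205-126799504, minus strand, 1 of its 3 listed starts): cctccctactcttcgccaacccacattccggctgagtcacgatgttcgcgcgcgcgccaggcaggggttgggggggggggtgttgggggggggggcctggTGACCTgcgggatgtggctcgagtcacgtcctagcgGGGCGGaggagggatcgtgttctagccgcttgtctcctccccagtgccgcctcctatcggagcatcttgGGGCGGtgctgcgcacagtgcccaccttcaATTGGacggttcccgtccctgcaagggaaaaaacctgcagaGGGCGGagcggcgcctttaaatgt
The motifs searched were AGGTCA (the nuclear receptor half-site), the PPAR and RXR direct repeat (the half-site 2 times, 1 base apart), GGGCGG (the GC box) and CCAAT. The Gdpd3 window was 64.3% G and C with 7 CpG dinucleotides and held none of these letters. The Ypel3 window had 28 CpG dinucleotides and 1 CCAAT match. The Aldoa window had 1 AGGTCA match, 3 GGGCGG matches and 1 CCAAT match. Of the windows at its other listed starts, the one beginning at 126799129 had the same numbers of matches and the one beginning at 126800398 held none of the motifs. The Mvp window, not printed, also had 1 AGGTCA match and 1 GGGCGG match, and Mvp was not called with rosiglitazone. Over 32851 RefSeq windows of the same length, 16.3% held AGGTCA, 0.0396% held the direct repeat, 35.7% held GGGCGG and 37.4% held CCAAT.

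Before the values, 2 features of the libraries matter. The eWAT K107R vehicle libraries held 3300 to 3520 FPKM summed over 6 epididymis markers (such as Spint4 and Crisp1), against 0 to 5.64 FPKM in every other library, so eWAT vehicle comparisons carry that difference. The 8 libraries with replicate number 2 had lower median FPKM over genes (5.36 to 8.83) than the 8 with number 1 (8.95 to 9.61), and Gdpd3 was lower in number 2 in 8 of 8 groups, so values are given by number. The actin gene Actb differed far more, with 771 to 2016 FPKM in the number 1 libraries. In number 2 it had 21.7 to 261 FPKM, except in eWAT K107R rosiglitazone, where it had 938 FPKM. That library also had the highest median of number 2 (8.83), so this group carries less of the difference between numbers. What lies behind the difference was not tested. Fat cell markers (Adipoq, Plin1, Cidec, Lep, Retn and Cfd) summed to at least 4759 FPKM in every library, and the mesothelial markers of visceral fat summed to 44.1 to 71.3 FPKM in eWAT and at most 4.61 FPKM in iWAT.

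Gdpd3 was lower in K107R than in WT fat in both depots and under both treatments. In eWAT with rosiglitazone it had 10.3 and 8.84 FPKM in K107R libraries (numbers 1 and 2), against 80.4 and 70.1 FPKM in WT libraries. In eWAT with vehicle it had 26.8 and 20.8 FPKM in K107R libraries, against 56.6 and 48.8 FPKM in WT libraries. In neither treatment did the genotypes overlap in eWAT, and the K107R rosiglitazone libraries were the lowest of the depot.
In iWAT with rosiglitazone, Gdpd3 had 13.6 and 10.7 FPKM in K107R libraries, against 79.0 and 68.7 FPKM in WT libraries. In iWAT with vehicle it had 33.2 and 24.3 FPKM in K107R libraries, against 64.1 and 50.9 FPKM in WT libraries. The same order of the 4 groups thus stood in iWAT, again with no overlap between genotypes. The highest Gdpd3 level in any K107R library, 33.2 FPKM, lay under the lowest in any WT library, 48.8 FPKM.

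**Figure D1:**
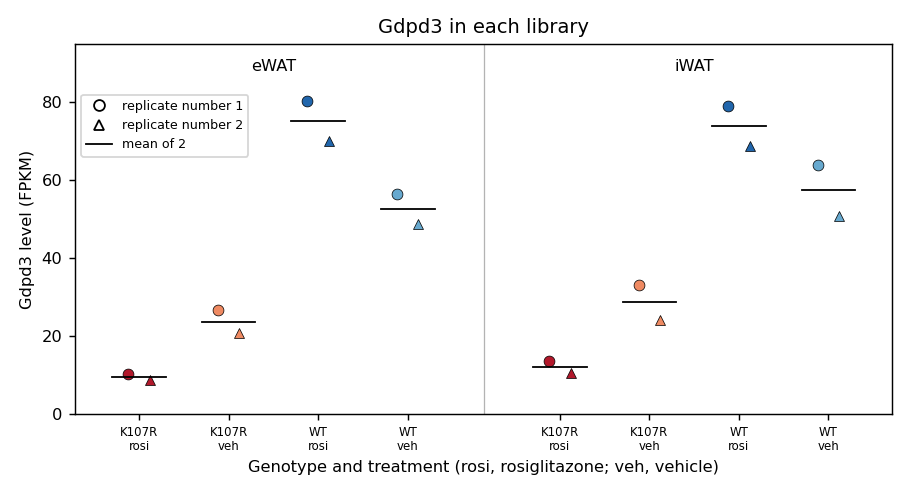
Gdpd3 level (FPKM, linear axis from 0) in each of the 16 libraries by depot, genotype and treatment; circles are replicate number 1, triangles number 2 and lines the mean of 2. The K107R libraries lie between 8.84 and 33.2 FPKM and the WT libraries between 48.8 and 80.4 FPKM, and rosiglitazone libraries are the lowest in K107R and the highest in WT.

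On the log2(FPKM + 1) scale the Gdpd3 difference, K107R minus WT, was -2.85 (SE 0.209) with rosiglitazone and -1.12 (SE 0.209) with vehicle in eWAT. In iWAT it was -2.51 (SE 0.209) with rosiglitazone and -0.98 (SE 0.209) with vehicle, with n = 2 libraries a group throughout. Within a replicate number, the K107R level was 0.128 and 0.126 of the WT level in eWAT with rosiglitazone and 0.474 and 0.427 of it with vehicle. In iWAT it was 0.173 and 0.155 of the WT level with rosiglitazone and 0.518 and 0.478 of it with vehicle. The 2 numbers therefore gave nearly the same ratio in each stratum, although their levels differed. Leaving out 1 library moved the vehicle difference in iWAT most, to -1.20 without the number 1 and -0.76 without the number 2 K107R vehicle library. Such a fit leaves the numbers unbalanced, so this spread includes the difference between numbers, as does the SE. The ratios within numbers, 0.518 and 0.478, do not include it.
Ordered by mean level, Gdpd3 stood at 9.58 ± 1.05 FPKM in eWAT K107R rosiglitazone (SD, n = 2), 12.2 ± 2.09 in iWAT K107R rosiglitazone, 23.8 ± 4.21 in eWAT K107R vehicle, 28.8 ± 6.28 in iWAT K107R vehicle, 52.7 ± 5.52 in eWAT WT vehicle, 57.5 ± 9.31 in iWAT WT vehicle, 73.9 ± 7.24 in iWAT WT rosiglitazone and 75.3 ± 7.22 in eWAT WT rosiglitazone. The depots overlapped at the same genotype and treatment in 3 of these 4 pairs, and in K107R rosiglitazone the lowest iWAT library (10.7 FPKM) was just above the highest eWAT library (10.3 FPKM). The genotype difference of Gdpd3 in eWAT less that in iWAT, averaged over treatments, was -0.24 (SE 0.209), and was not tested.

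Leukocyte and mast cell markers also differed between the genotypes, and the sums for macrophages, erythrocytes and fat cells follow them. The 5 leukocyte markers summed here (Ptprc, Cd3e, Cd79a, Nkg7 and Lck), none at 0 in any group, summed in eWAT with rosiglitazone to 42.3 to 42.4 FPKM in K107R libraries, against 46.8 to 58.3 FPKM in WT libraries. With vehicle they summed to 27.0 to 41.7 FPKM in K107R libraries, against 57.1 to 69.4 FPKM in WT libraries. In iWAT they summed with rosiglitazone to 23.9 to 36.3 FPKM in K107R libraries, against 135 to 192 FPKM in WT libraries. With vehicle the sums were 59.4 to 94.3 FPKM in K107R libraries, against 93.1 to 140 FPKM in WT libraries. The 6 mast cell markers summed in eWAT with rosiglitazone to 176 to 181 FPKM in K107R libraries, against 415 to 431 FPKM in WT libraries. On vehicle they came to 120 to 141 FPKM in K107R libraries, against 192 to 215 FPKM in WT libraries. In iWAT the mast cell markers were at 71.9 to 84.2 FPKM in K107R and 85.9 to 91.9 FPKM in WT with rosiglitazone, and at 59.9 to 76.1 FPKM in K107R and 71.3 to 82.3 FPKM in WT with vehicle. Both sets were thus lower in K107R alongside Gdpd3, with genotypes that overlapped in iWAT with vehicle and not in the other 3 strata, and their part in the Gdpd3 difference was not tested. In bulk tissue, fewer cells of a type and less RNA per cell cannot be told apart.
The 4 macrophage markers overlapped between genotypes in all 4 strata. In eWAT they summed with rosiglitazone to 970 to 1162 FPKM in K107R and 1000 to 1390 FPKM in WT libraries. With vehicle they summed to 791 to 1192 FPKM in K107R and 922 to 1184 FPKM in WT libraries. In iWAT they summed with rosiglitazone to 216 to 287 FPKM in K107R and 199 to 234 FPKM in WT libraries. With vehicle the sums were 216 to 308 FPKM in K107R and 179 to 246 FPKM in WT libraries. The 2 measured erythrocyte markers were lower in K107R in 3 strata and higher in the fourth, without overlap. They summed in eWAT with rosiglitazone to 259 to 270 FPKM in K107R and 506 to 544 FPKM in WT libraries. On vehicle they came to 326 to 396 FPKM in K107R and 189 to 258 FPKM in WT libraries. In iWAT they summed with rosiglitazone to 247 to 293 FPKM in K107R and 338 to 399 FPKM in WT libraries. With vehicle they summed to 313 to 327 FPKM in K107R and 402 to 556 FPKM in WT libraries.
Fat cell markers were higher in K107R, without overlap, in all 4 strata. They summed in eWAT with rosiglitazone to 7507 to 7860 FPKM in K107R and 5646 to 6252 FPKM in WT libraries. With vehicle the sums were 5710 to 5865 FPKM in K107R and 4759 to 4888 FPKM in WT libraries. In iWAT they summed with rosiglitazone to 13022 to 13375 FPKM in K107R and 9667 to 10815 FPKM in WT libraries. On vehicle they came to 8288 to 9578 FPKM in K107R and 7678 to 8055 FPKM in WT libraries. The part of these markers in the Gdpd3 difference was not tested either.

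None of the 8 neighbours passed the test between genotypes in any depot or treatment. The test was limma on log2(FPKM + 1) over all genes, two-sided, with Benjamini-Hochberg adjustment over the 13669 genes and a threshold of adjusted p under 0.05. Against 0 of 8 neighbours, it called 0.907% of all genes in eWAT with rosiglitazone, 3.35% in eWAT with vehicle, 4.13% in iWAT with rosiglitazone and 0.578% in iWAT with vehicle, so a count of 0 among 8 is near the background. The libraries of the genotypes did not overlap for 1 neighbour in eWAT with rosiglitazone (34% of all genes), 3 in eWAT with vehicle (32.4%), 1 in iWAT with rosiglitazone (23.6%) and 0 in iWAT with vehicle (15.8%). At an unadjusted p under 0.05, 1 neighbour (Aldoa) passed in eWAT with rosiglitazone (6.34% of all genes) and 0 did in eWAT with vehicle (8.77%), iWAT with rosiglitazone (10.2%) or iWAT with vehicle (4.89%). Within replicate numbers the neighbours' 64 ratios of K107R over WT ran from 0.804 to 1.48, while the 8 ratios of Gdpd3 ran from 0.126 to 0.518.

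Mapk3, whose end lies nearest upstream, had 164 and 140 FPKM in K107R and 158 and 168 FPKM in WT eWAT libraries with rosiglitazone, and 140 and 129 FPKM in K107R and 146 and 150 FPKM in WT eWAT libraries with vehicle. In iWAT it had 129 and 113 FPKM in K107R and 115 and 106 FPKM in WT libraries with rosiglitazone, and 122 and 83.7 FPKM in K107R and 122 and 94.5 FPKM in WT libraries with vehicle. The genotypes overlapped in 3 of these 4 strata, all but eWAT with vehicle, and the log2 difference lay between -0.14 and 0.13 (SE 0.188 each; limma adjusted p of 0.942 to 1).
Ypel3, nearest downstream, had 103 and 141 FPKM in K107R and 107.4 and 141 FPKM in WT eWAT libraries with rosiglitazone, and 130 and 167 FPKM in K107R and 103 and 121 FPKM in WT eWAT libraries with vehicle. In iWAT it had 117 and 99.0 FPKM in K107R and 101 and 105 FPKM in WT libraries with rosiglitazone, and 124 and 99.6 FPKM in K107R and 104 and 110 FPKM in WT libraries with vehicle. The genotypes overlapped except in eWAT with vehicle, where both K107R libraries were above both WT libraries (log2 difference 0.40, SE 0.209, limma adjusted p = 0.742). That difference passed (0.58, limma adjusted p = 0.00967) only when libraries were rescaled by median ratios with the replicate number as a block, a combination added after the data were seen; it is opposite in direction to Gdpd3, and the epididymis markers differ in the same libraries.

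Aldoa, the most abundant member per length, had 1464 and 1476 FPKM in K107R and 1114 and 1265 FPKM in WT eWAT libraries with rosiglitazone, with no overlap (log2 difference 0.31, SE 0.115, limma adjusted p = 0.553). With vehicle it had 1078 and 1044 FPKM in K107R and 1007 and 1070 FPKM in WT eWAT libraries. In iWAT, Aldoa had 1699 and 1776 FPKM in K107R and 1602 and 1798 FPKM in WT libraries with rosiglitazone, and 1054 and 1100 FPKM in K107R and 1059 and 1066 FPKM in WT libraries with vehicle. There the genotypes overlapped under both treatments, with log2 differences of 0.03 and 0.02 (SE 0.115 each).
The other 5 neighbours showed small differences. Mvp in iWAT with rosiglitazone was at 72.2 and 97.4 FPKM in K107R libraries and 68.4 and 65.7 FPKM in WT libraries, without overlap, but the K107R libraries were far apart (log2 difference 0.32, SE 0.165, limma adjusted p = 0.667). Ppp4c, Ino80e, Taok2 and Cdipt had log2 differences from -0.22 (Taok2 in eWAT with vehicle) to 0.19 (Ino80e in eWAT with rosiglitazone). These non-calls leave room for moderate differences: the 95% intervals of the 8 neighbours reached from -0.59 to 0.81 in eWAT with rosiglitazone, -0.82 to 0.87 in eWAT with vehicle, -0.75 to 0.83 in iWAT with rosiglitazone and -0.78 to 0.62 in iWAT with vehicle. They come from the fit without a block, so their width includes the difference between replicate numbers. In eWAT with vehicle the median over all genes was itself at -0.13, and 0.01 after median-ratio rescaling, under which Gdpd3 was at -0.95.

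**Figure D2:**
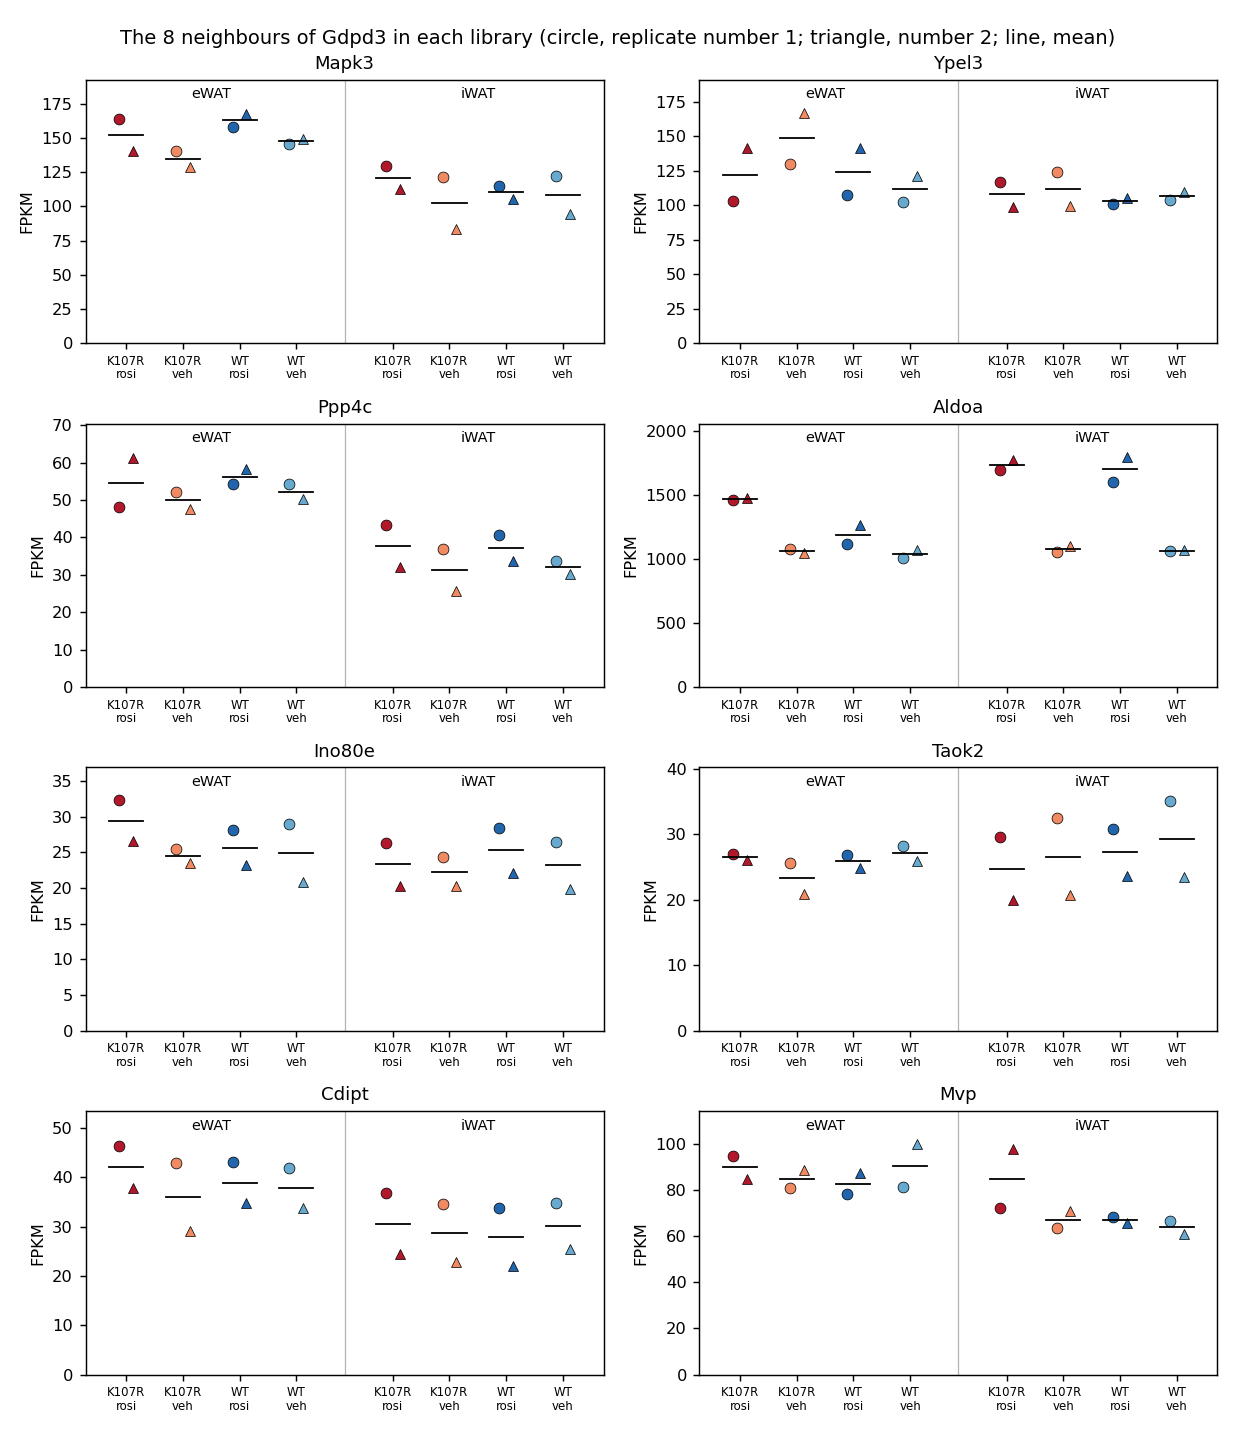
FPKM of each neighbour (linear axes from 0, each gene on its own scale) in the 16 libraries, by depot, genotype and treatment; circles are replicate number 1, triangles number 2 and lines the mean of 2. K107R and WT libraries lie at similar levels in most panels, and the rosiglitazone libraries of Aldoa stand above its vehicle libraries, most clearly in iWAT (1602 to 1798 FPKM against 1054 to 1100 FPKM).

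**Figure D3:**
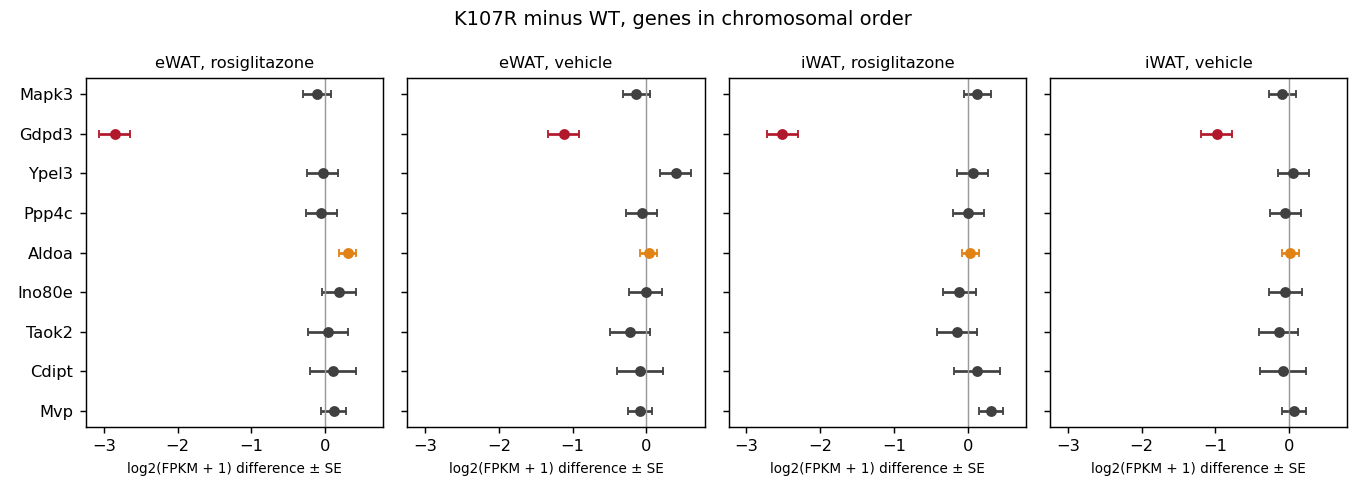
K107R minus WT difference on the log2(FPKM + 1) scale, with its SE from the fit over all 16 libraries, for the 9 genes in chromosomal order in each depot and treatment. Gdpd3 lies between -2.85 and -0.98 while the neighbours lie between -0.22 and 0.40.

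Set against the median of its 8 neighbours in the same library, Gdpd3 was at -2.60 and -2.89 log2 units in the eWAT K107R rosiglitazone libraries and at -1.25 and -1.60 in the eWAT K107R vehicle libraries. In eWAT WT it was at 0.30 and -0.03 with rosiglitazone and at -0.22 and -0.53 with vehicle. In iWAT it was at -1.96 and -2.29 log2 units in K107R rosiglitazone libraries and at -0.53 and -0.79 in K107R vehicle libraries, while WT libraries were at 0.58 and 0.53 with rosiglitazone and 0.40 and 0.24 with vehicle. The neighbours' own median stayed between 6.04 and 6.19 in eWAT and between 5.45 and 5.83 in iWAT. The neighbours' median showed no split by genotype of the kind seen in Gdpd3. Within each depot the K107R libraries were below the WT libraries, but across depots the highest K107R library (iWAT vehicle) and the lowest WT library (eWAT vehicle) were both at -0.53. With Mapk3 and Ypel3 alone in place of the 8, all 8 K107R libraries were lower than all 8 WT libraries, from -3.85 to -1.86 in K107R against -1.45 to -0.44 in WT. Gdpd3 was chosen on its genotype values and these references varied little, so the splits add no separate support.

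With rosiglitazone, Gdpd3 was lower than with vehicle in K107R fat and higher than with vehicle in WT fat. In K107R fat, its level with rosiglitazone was 0.385 and 0.424 of that with vehicle in eWAT (numbers 1 and 2) and 0.411 and 0.439 of it in iWAT. In WT fat, the level with rosiglitazone was 1.42 and 1.44 times that with vehicle in eWAT and 1.23 and 1.35 times it in iWAT. Treated and vehicle libraries did not overlap in any of these 4 pairs, as for 36.1% of all genes in K107R eWAT, 26.8% in WT eWAT, 24.6% in K107R iWAT and 23.9% in WT iWAT.
The fall in K107R passed the test in both depots, at -1.22 in eWAT (SE 0.209, limma adjusted p = 0.00546) and -1.17 in iWAT (SE 0.209, limma adjusted p = 0.0111); these tests share libraries with the genotype values that chose the gene. In eWAT K107R the median of all genes was at 0.17 and was 0.00 after rescaling, where Gdpd3 was at -1.43 (limma adjusted p = 0.000247). In WT the differences, 0.51 in eWAT (limma adjusted p = 0.858) and 0.36 in iWAT (limma adjusted p = 0.849), did not pass without a block; with the replicate number as a block they did (limma adjusted p = 0.0194 in eWAT, where 2.47% of all genes then passed, and 0.0449 in iWAT, where 6.98% did). With the block and median-ratio rescaling together, added after the data were seen, both missed the threshold again (limma adjusted p = 0.0551 in eWAT and 0.119 in iWAT). The change with rosiglitazone in K107R less that in WT was -1.73 (SE 0.296) in eWAT and -1.53 (SE 0.296) in iWAT, with no test since it rests on the genotype values. The K107R calls each rest on thin replication: adjusted p became 0.0549 without the number 1 vehicle library and 0.0614 without the number 2 rosiglitazone library in eWAT, and 0.0813 and 0.101 without the same libraries in iWAT, where it was 0.139 with the iWAT libraries alone in the fit.

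Aldoa was the only other member called with rosiglitazone in these 4 comparisons, and it rose. In iWAT it rose in K107R (0.69, SE 0.115, limma adjusted p = 0.00798) and in WT (0.68, SE 0.115, limma adjusted p = 0.0185), with no overlap between rosiglitazone and vehicle libraries. In eWAT it rose in K107R (0.47, SE 0.115, limma adjusted p = 0.0479), while in WT the difference was 0.19 (SE 0.115, limma adjusted p = 1). The genotype-by-drug difference of Aldoa was 0.28 in eWAT (limma adjusted p = 0.995) and 0.01 in iWAT (limma adjusted p = 1). These calls were lost under median-ratio rescaling, with limma adjusted p of 0.92 in K107R eWAT, 0.525 in K107R iWAT and 0.724 in WT iWAT, although in iWAT the differences hardly moved (0.67 in K107R and 0.65 in WT). With 1 library left out, whichever of the 4, adjusted p was 0.168 to 0.277 in K107R eWAT and 0.0764 to 0.181 in WT iWAT, and it was 0.0392 to 0.067 in K107R iWAT, missing the threshold without the number 1 vehicle library and without the number 2 rosiglitazone library.
In all, 2 of 9 members passed in K107R eWAT where 4.89% of all genes did, 0 in WT eWAT where 0.446% did, 2 in K107R iWAT where 4.21% did, and 1 in WT iWAT where 1.68% did. In both K107R counts 1 of the 2 is Gdpd3, chosen on genotype values that share these libraries, so these counts show no excess among the members. Among the neighbours, taken by position, only Aldoa passed. Fat cell markers moved with Aldoa: they summed in iWAT to 13022 to 13375 FPKM in K107R rosiglitazone and 8288 to 9578 FPKM in K107R vehicle libraries, and to 9667 to 10815 FPKM in WT rosiglitazone and 7678 to 8055 FPKM in WT vehicle libraries; their part in the Aldoa difference was not tested. No neighbour passed in the genotype-by-drug interaction (2.53% of all genes in eWAT and 0.966% in iWAT), in the genotype-by-depot interaction (3.45%) or, with Gdpd3 included, in the rosiglitazone-by-depot interaction (2.21%); at an unadjusted limma p under 0.05 the counts were 0 (6% of all genes), 0 (4.24%), 0 (7.99%) and 1, Aldoa (5.93%).

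**Figure D4:**
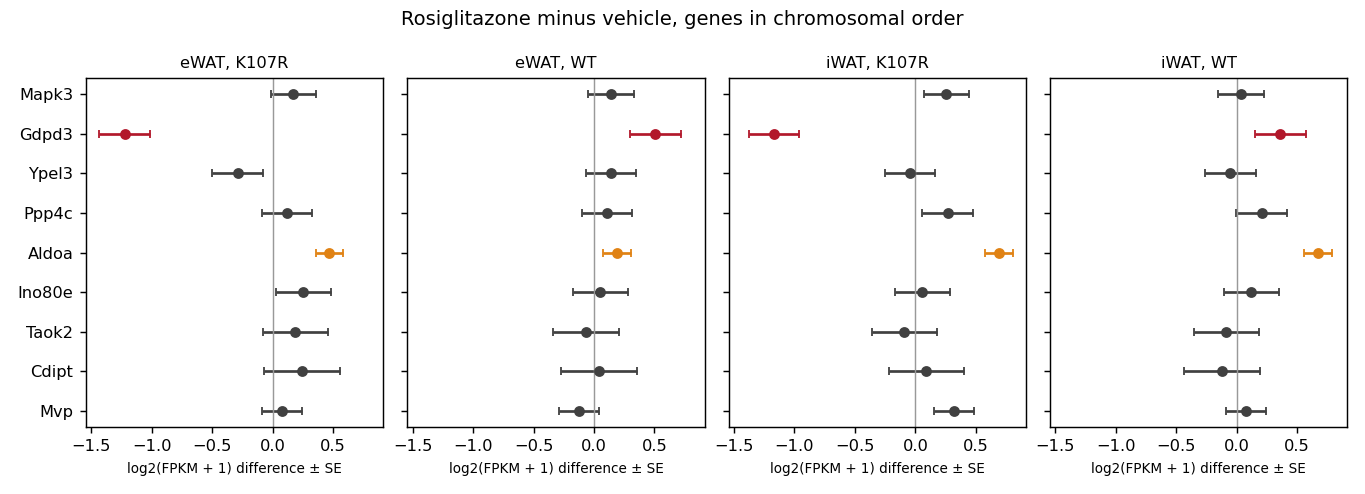
Rosiglitazone minus vehicle difference on the log2(FPKM + 1) scale, with its SE, for the 9 genes in chromosomal order in each depot and genotype. Gdpd3 lies at -1.22 and -1.17 in K107R and at 0.51 and 0.36 in WT, and Aldoa lies above 0 in all 4 panels (0.19 to 0.69).

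Between depots, the block was not uniform. Averaged over genotype and treatment, Ppp4c was higher in eWAT (47.7 to 61.1 FPKM) than in iWAT (25.6 to 43.2 FPKM), with no overlap, as for 10.8% of all genes (log2 difference 0.62, SE 0.104, limma adjusted p = 0.000959). Mapk3 (0.44, limma adjusted p = 0.00464) and Mvp (0.30, limma adjusted p = 0.0166) were also higher in eWAT, and Aldoa was lower there (-0.20, limma adjusted p = 0.0209, and 0.0519 to 0.0572 without the number 1 library of eWAT WT on vehicle or on rosiglitazone, or without number 2 of iWAT WT on rosiglitazone). These 4 of 9 members stand beside 32.4% of all genes called. Gdpd3 averaged 40.3 FPKM in eWAT and 43.1 FPKM in iWAT (log2 difference -0.16, SE 0.105, limma adjusted p = 0.283). The median of all genes was at 0.10 in this contrast and -0.01 after rescaling, which kept the call of Ppp4c (0.48, limma adjusted p = 0.00387), ended those of Mapk3 (0.30, limma adjusted p = 0.0608), Aldoa (-0.35, 0.181) and Mvp (0.16, 0.583), and added Gdpd3 (-0.30, 0.0129), Taok2 (-0.18, 0.032) and Cdipt (0.26, 0.00748), while 39.7% of all genes passed. With the replicate number as a block, 7 members passed: the 4 above and Gdpd3 (limma adjusted p = 0.0122), Ino80e (0.0288) and Cdipt (0.000157), while 55.8% of all genes passed.

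In the wider 16p11.2-like block of 25 genes, 22 genes other than Gdpd3 were tested. Between genotypes 0 of these 22 were called by limma in eWAT with rosiglitazone, in eWAT with vehicle or in iWAT with vehicle, where 0.907%, 3.35% and 0.578% of all genes were. Of the 22, 1, 1 and 3 had an unadjusted p under 0.05, as did 6.34%, 8.77% and 4.89% of all genes. In iWAT with rosiglitazone, where 4.13% of all genes were called, 3 were lower in K107R: Coro1a, an actin-binding protein of leukocytes (35.6 ± 1.26 FPKM in K107R, 114 ± 14.7 FPKM in WT; SD, n = 2 each; log2 difference -1.65, limma adjusted p = 0.000117), Spn, the leukocyte sialoprotein CD43 (-1.48, limma adjusted p = 0.00453), and Qprt, an enzyme of NAD synthesis (-0.76, limma adjusted p = 0.0211). That is the stratum where the leukocyte markers were at 23.9 to 36.3 FPKM in K107R and 135 to 192 FPKM in WT, and their part in these differences was not tested. The start of Coro1a lies at -66561 bp from that of Gdpd3, nearer than those of Ino80e (84626 bp), Taok2, Cdipt and Mvp.
Within 2 Mb on either side of the Gdpd3 start, 103 genes were counted besides Gdpd3 and Itgad, a leukocyte integrin whose genotype values were known beforehand and are given as a description. Itgad had 42.3 and 46.1 FPKM in K107R and 9.99 and 11.7 FPKM in WT eWAT libraries with rosiglitazone, and 41.1 and 44.0 FPKM in K107R and 2.76 and 3.24 FPKM in WT iWAT libraries with rosiglitazone. Its K107R libraries were above its WT libraries in both depots there. In eWAT with rosiglitazone 1 of the 103 was called (0.907% of all genes were): 4931431B13Rik, a transcript on the opposite strand that shares 11279 bp with Itgad, higher in K107R. As the strand setting is not given, its reads may not be told apart from those of Itgad. This also holds for its calls in the other strata.
In eWAT with vehicle 4 of the 103 were higher and 3 lower (3.35% of all genes were called); the largest were Prss8, an epithelial protease (4.13 ± 0.389 FPKM in K107R, 0.0413 ± 0.0155 FPKM in WT; SD, n = 2 each), followed by 4931431B13Rik and 4930571K23Rik. Epididymis markers were at 3300 to 3520 FPKM in those K107R libraries and at 0 to 0.165 FPKM in the WT libraries, and their part was not tested. In iWAT with vehicle 3 were higher and 0 lower (0.578% of all genes were called), namely 4931431B13Rik and the fast muscle genes Atp2a1 (2.37) and Mylpf (1.49), beside skeletal muscle markers at 87.2 to 90.5 FPKM in K107R and 25.7 to 26.9 FPKM in WT (Mylpf is 1 of those 7 markers). In iWAT with rosiglitazone 3 were higher and 9 lower (4.13% of all genes were called); among the largest were 4931431B13Rik and the T cell gene Lat (-2.45).

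**Figure D5:**
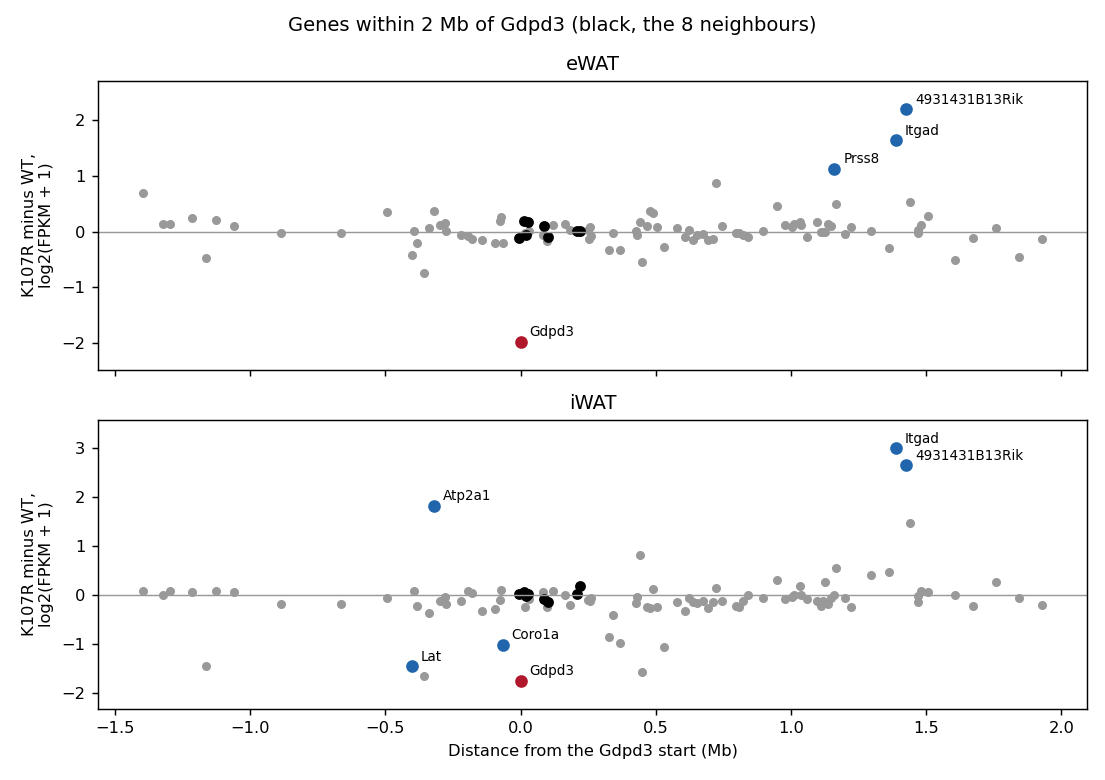
K107R minus WT difference on the log2(FPKM + 1) scale, averaged over treatments, for the genes tested within 2 Mb of Gdpd3, against distance from the Gdpd3 start in Mb (upper panel eWAT, lower panel iWAT). Gdpd3 (red; -1.98 in eWAT and -1.75 in iWAT) stands apart from the 8 neighbours (black), which lie between -0.15 and 0.20.

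Genes of the pathway around Gdpd3 were called at shares near those of all genes. Of 50 listed genes of lysophospholipid and N-acylethanolamine metabolism (other Gdpd family members, phospholipases, lysophosphatidic acid receptors and acyltransferases), 40 were tested. Between genotypes 0 were called in eWAT with rosiglitazone, eWAT with vehicle and iWAT with vehicle, where 0.907%, 3.35% and 0.578% of all genes were. At an unadjusted limma p under 0.05 the counts were 3, 3 and 0, beside 6.34%, 8.77% and 4.89% of all genes. In iWAT with rosiglitazone, where 4.13% of all genes were called, 1 of the 40 was: Faah, the hydrolase of N-acylethanolamines, with 0.407 ± 0.129 FPKM in K107R and 2.75 ± 0.234 FPKM in WT (SD, n = 2 each; log2 difference -1.41, limma adjusted p = 0.000548). The list's median log2 difference was 0.08 in eWAT with rosiglitazone (0.01 over all genes) and 0.05 in iWAT with rosiglitazone (-0.01 over all genes). Of 36 tested paralogs and partners of the neighbours, such as other glycolytic enzymes, 0 were called in any of the 4 strata by limma (3 in eWAT with rosiglitazone, 2 in eWAT with vehicle and 0 in both iWAT strata at an unadjusted p under 0.05), beside the same shares of all genes as above.

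Over the 16 libraries, with depot and replicate number means subtracted, no neighbour was among the genes whose pattern was most like that of Gdpd3. Of 11276 genes with a mean of at least 2 FPKM, the most alike were A530016L24Rik (r = 0.953), the retinol carrier Rbp4 (0.949), the lipogenic regulator Thrsp (0.944), the adaptor Stap1 (0.941) and A930005H10Rik (0.934). Rbp4 averaged 64.7 FPKM in K107R rosiglitazone, 102 in K107R vehicle, 151 in WT rosiglitazone and 147 in WT vehicle eWAT. Thrsp averaged 59.1 FPKM in K107R rosiglitazone, 165 in K107R vehicle, 236 in WT rosiglitazone and 174 in WT vehicle eWAT. Each is lowest, as Gdpd3 is, in K107R with rosiglitazone.
The most unlike were Gnao1 (-0.968), Ntm (-0.963), Sesn2 (-0.961), Il17rc (-0.96) and Prss36 (-0.947). The neighbours ran from -0.513 for Mvp to 0.44 for Taok2, with Mapk3 at 0.00361, while Itgad was at -0.839. These correlations describe libraries that share genotype and treatment groups, and carry no test. Prss36 is itself a gene of the 2 Mb window and starts 1166304 bp beyond the Gdpd3 start. It was called higher in K107R in iWAT with rosiglitazone (log2 difference 0.665, limma adjusted p = 0.0211) and not in the other strata (limma adjusted p of 0.0803 to 0.428). Averaged over treatments it was called in eWAT (0.492, limma adjusted p = 0.0154) and in iWAT (0.555, limma adjusted p = 0.0072).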

How the data were processed

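Polyadenylated RNA of whole fat was read at 75 nt, single end (stranded kit, 4 ug of input RNA), per the labels' protocols. The authors deposited 1 table of FPKM values for 14023 genes and 16 libraries, all of whose columns were mapped (0 left out). The submitters' processing notes name Cufflinks 2.2.1, TopHat2 2.0.12 and CASAVA 1.8.2 with the build mm10, without roles; read depth is unknown, so no counting error can be given. Values were analysed as log2(FPKM + 1) with limma 3.58.1 in R 4.3.3 (trend, 1 mean per group, all 16 libraries), tested on simulated data first. Fold changes on this scale understate changes of low genes. Alternatives were a pseudocount of 0.1, no filter, median-ratio rescaling, a replicate block, each library left out, and each depot alone.

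After group means were subtracted, libraries of the same number correlated in 28 of 28 pairs of groups (r of 0.121 to 0.791), so the numbers pair the libraries. Without eWAT K107R rosiglitazone the lowest r was 0.501, so that group shares the difference between numbers least. The replicate block assumes 1 shift common to all groups, which may hold poorly there. What a number stands for is not in the labels. Positions are from GENCODE M21. The members and gene lists were chosen with earlier results of these data known. Genes named are the members, Itgad, the 5 genes most and 5 least like Gdpd3, up to 4 called genes per list and contrast by size, and leading markers. A few genes of these lists are not reported here by name, and 1 leukocyte marker was left out of its list.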

Additional observations from a re-analysis of the deposited data

Results flagged for a closer look

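The response of Gdpd3 to rosiglitazone pointed one way in K107R and the other way in WT, in both depots. In eWAT the K107R libraries with rosiglitazone (10.3 and 8.84 FPKM) were below those with vehicle (26.8 and 20.8 FPKM), and the WT libraries with rosiglitazone (80.4 and 70.1 FPKM) were above those with vehicle (56.6 and 48.8 FPKM), a difference of responses of -1.731 on the log2(FPKM + 1) scale. In iWAT the same held, with a difference of responses of -1.532. Neither difference was tested, because values of Gdpd3 between genotypes chose the gene. The K107R vehicle libraries that carry the epididymis markers enter the eWAT value and not the iWAT value.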

How the results depend on the processing

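Gdpd3 was lower in K107R than in WT in all 78 values computed over 6 genotype contrasts and their settings. The gene was chosen on this difference and its genotypes do not overlap. Leaving out a library could therefore not change the sign, and the count adds no support. The size did vary: leaving out each library in turn gave -1.293 to -0.9451 in eWAT with vehicle and -1.199 to -0.7646 in iWAT with vehicle. Each such fit leaves the replicate numbers unbalanced, so these ranges include the difference between numbers. No neighbour was called between genotypes or in an interaction in any of 864 values under the settings listed with the methods. Many of these values are refits with 1 library left out, which have less power, so the count adds little. With the replicate block and median-ratio rescaling together, added after seeing the data, 1 neighbour was called (Ypel3, eWAT vehicle). Ypel3 was then also lower with rosiglitazone in K107R eWAT (-0.51, limma adjusted p = 0.0147). Leaving out the eWAT K107R vehicle libraries, also added later, kept the count of 0 neighbours in the other 3 strata. With the replicate block the number of members called by rosiglitazone was 1 in WT eWAT and 2 in WT iWAT, against 0 and 1. With median-ratio rescaling it was 1 in K107R eWAT, 1 in K107R iWAT and 0 in WT iWAT, against 2, 2 and 1. With the depot's libraries alone it was 1 in K107R eWAT, 0 in K107R iWAT and 0 in WT iWAT. Leaving out each library gave 0 to 1 in K107R eWAT, 0 to 2 in K107R iWAT and 0 in WT iWAT. The replicate block gave 7 members called between depots, against 4. For genes of the 2 Mb window it gave 7 in eWAT with rosiglitazone and 8 in iWAT with vehicle, against 1 and 3; a pseudocount of 0.1 gave 2 in the first and the depot alone 1 in the last, and leaving out libraries gave 4 to 5 in eWAT with vehicle, against 7. Of the 25-gene block, the replicate block called 1 in iWAT with vehicle, and the depot alone 1 in iWAT with rosiglitazone, against 0 and 3, where leaving out libraries gave 1 to 3. Of the lysophospholipid list, the replicate block called 1 in eWAT with vehicle, 1 in eWAT with rosiglitazone and 5 in iWAT with rosiglitazone, and rescaling 3 in the last, against 0, 0 and 1. Of the paralogs and partners, rescaling called 1 in eWAT with vehicle and the replicate block 1 in eWAT with rosiglitazone, against 0. Over all 13669 genes the replicate block raised every count. Between genotypes it called 474 against 124 in eWAT with rosiglitazone and 1134 against 458 in eWAT with vehicle. In iWAT it called 1280 against 565 with rosiglitazone and 290 against 79 with vehicle. The depot's libraries alone called 56, 185 and 20 in eWAT with rosiglitazone, iWAT with rosiglitazone and iWAT with vehicle. The list counts that changed moved in the same direction under these 2 settings, and no excess in a list was tested. Among the 9 members the block changed no other call named in the report. Its effect on the calls of the other named genes is not given. The cause of these changes was not tested. With depot means alone subtracted, 4 of the 5 genes most like Gdpd3 and 1 of the 5 least like it were shared. No called value changed sign, but median-ratio rescaling changed the sign of 21 of 135 differences of the 9 members, none of them called, for example Mapk3 between genotypes in eWAT with vehicle (0.04, against -0.14) and with rosiglitazone in K107R eWAT (-0.05, against 0.17). With 2 libraries a group and no read counts, differences smaller than the intervals given are not resolved.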
